A study of Mus musculus with 9 samples.

Results

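Preneoplastic neuroendocrine lung cells carrying an N-Myc retrovirus were compared with the same kind of cells without it, on 5 of the 9 Affymetrix mouse arrays of the series. The arrays were chosen by their titles: 2 N-Myc arrays and 3 arrays of the untransduced cells, called preSC. The untransduced cells came from lungs of mice of mixed C57BL/6 and 129/Sv background, in which Adeno-Cre virus had been given to act on conditional alleles of Rb, p53 and p130. They are early cells on the path to small cell lung cancer, a neuroendocrine tumour that commonly lacks Rb and p53. The Rb/p53/p130 genotype is given for all 9 arrays, so the N-Myc cells carried it too and differed by the label retro-N-Myc. All cells were grown without stroma in serum-containing RPMI medium, and no treatment was given. The promoter of the retrovirus, the number of clones and the time after infection are not given in the labels. The other 4 arrays are 2 of preSC with an L-Myc retrovirus and 2 with a C-Myc retrovirus, and they served here to estimate the spread and for side-by-side values. The deposited table holds 45101 probe sets, of which 34945 carried 1 gene symbol and stood for 18193 genes. For a gene with several probe sets the brightest on average was used, and 12976 genes were bright enough to be tested. Levels are RMA values on a log2 scale, so a difference of 1 is a 2-fold difference. Since probe sets differ in how well they bind, the level of one gene is not set against that of another.

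N-Myc, C-Myc and L-Myc are transcription factors that pair with MAX and bind the E-box CACGTG in promoters. MYC proteins are known for raising genes of ribosome synthesis, translation, nucleotide synthesis and glycolysis, and MXD proteins compete with them for MAX. MYC family genes are amplified in some small cell lung cancers, whose cells resemble pulmonary neuroendocrine cells with secretory granules and synaptic proteins.

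The arrays did not fall apart by label alone. The 2 N-Myc arrays differed by more than 2-fold at 13 probe sets, and preSC arrays 1 and 2 at 47, whereas preSC 3 differed from those at 1909 and 1807. C-Myc 1 lay close to the N-Myc arrays, with 194 and 182 probe sets over 2-fold, and differed from C-Myc 2 at 3035. The descriptions of the C-Myc and N-Myc arrays share a run name, and those of C-Myc 1 and N-Myc 2 also share a number. Whether C-Myc 1 and C-Myc 2 carry the right labels was not tested, so every C-Myc value below is that of an array labelled so. C-Myc 2 differed from L-Myc 2 at 41 probe sets, and L-Myc 1 from L-Myc 2 at 2252. An N-Myc and a preSC array differed at 5949 to 7042 probe sets. The labels call the RNA of the preSC and L-Myc arrays polyA RNA and that of the C-Myc and N-Myc arrays total RNA, so between N-Myc and preSC this label and the group cannot be told apart. The 18S ribosomal RNA control probe sets averaged 13.25 ± 0.58 (SD) over the 3 preSC arrays and 8.84 ± 0.62 (SD) over the N-Myc arrays. The 5′ minus 3′ difference of the Dap control was -3.52 ± 0.13 (SD, n = 3) against -1.64 ± 0.05 (SD, n = 2). All 4 L-Myc and C-Myc arrays lay near the N-Myc values on both measures, between 8.22 and 9.35 and between -1.68 and -1.51, so these controls did not follow the molecule label: the L-Myc arrays share it with preSC. The part of these controls in the results below was not tested.

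Of the 12976 genes tested, 3741 differed between N-Myc and preSC arrays (28.8%) at an adjusted p under 0.05 in limma's moderated test. Of these, 1617 rose (12.5%) and 2124 fell (16.4%), and 625 rose and 1131 fell by at least 2-fold (together 13.5%). The median difference over all tested genes was -0.03. The arrays of the 2 groups did not overlap at 8508 genes (65.6%), so a lack of overlap is common here. The number of genes called depended on the arrays kept: it was 2106 without preSC 1 and 1832 without preSC 2. Leaving out N-Myc 1 or N-Myc 2 leaves 1 array in that group, so the smaller group alone costs calls. A call lost there, here or below, does not show that the difference came from 1 array. No called gene changed direction without N-Myc 1 or without N-Myc 2. When the nearly identical N-Myc arrays were averaged into 1 sample, and preSC 1 and 2 likewise, no gene passed in limma (smallest adjusted p = 0.0683), although 2709 genes had an unadjusted p under 0.05. The calls therefore assume that these arrays are separate samples: the design text calls the replicates biological, and nothing names separate cultures. When each array was centred on the median of the genes tested, the median difference became 0.14 and the calls were 2662 higher and 1518 lower. Of the 216 genes named here that passed, 53 kept their call whichever of the 5 arrays was left out, and each of the others lost it without N-Myc 1, without N-Myc 2 or without either. Of 2117 called genes with a second probe set, that probe set moved the same way for 1620 and the opposite way for 497.

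The MYC genes themselves were read first. Myc, which encodes C-Myc, was measured by 1 probe set on chromosome 15. Its level was 6.50, 6.82 and 8.13 in the preSC arrays and 11.96 and 11.40 in the N-Myc arrays. Both N-Myc arrays lay above all preSC arrays, and the difference was 4.53 (SE 0.61, adjusted p = 0.004273 in limma). C-Myc 1 and 2 read 11.22 and 10.68 on this probe set, and L-Myc 1 and 2 read 5.63 and 7.29. This probe set was therefore high in the arrays labelled N-Myc as well as in those labelled C-Myc. Mycn, which encodes N-Myc, has 3 probe sets. The brightest read 6.89, 6.79 and 6.37 in preSC and 11.64 and 11.07 in N-Myc arrays, a difference of 4.67 (SE 0.26, adjusted p = 0.0007179). It was higher still in the L-Myc arrays, at 12.92 and 13.33, and in the C-Myc arrays, at 13.54 and 13.08. The second Mycn probe set went the other way, from 8.50, 8.52 and 7.74 to 5.62 and 5.47. The dimmest Mycn probe set was the one that set the N-Myc arrays apart: it read 9.05 and 8.46 there and between 5.79 and 6.39 in the other 7 arrays. The labels do not say which part of the gene or of the retrovirus each probe set measures. The brightest Mycl probe set, for L-Myc, did not pass (difference -0.70, adjusted p = 0.1826), and its other 2 probe sets differed by 1.53 and 1.72.

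**Figure D1:**
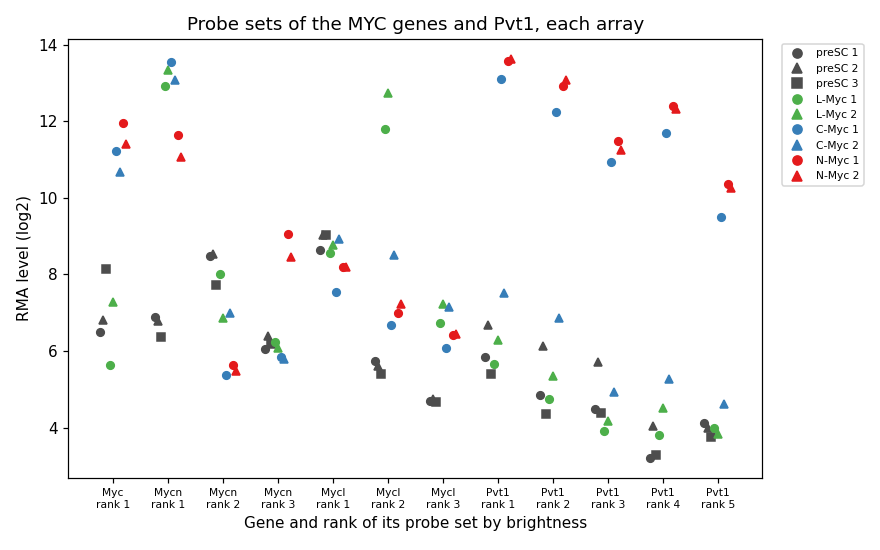
RMA level on a log2 scale (vertical axis) of each probe set of Myc, Mycn, Mycl and Pvt1 (horizontal axis, ranked by brightness within the gene); each point is 1 array, coloured by its label. The third Mycn probe set is high in the N-Myc arrays, and all 5 Pvt1 probe sets are high in N-Myc 1, N-Myc 2 and C-Myc 1.

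Pvt1, a long noncoding RNA gene that neighbours Myc on chromosome 15, had the largest rise among the named genes. It read 5.84, 6.69 and 5.40 in preSC and 13.58 and 13.63 in N-Myc arrays, a difference of 7.63 (SE 1.37, adjusted p = 0.009083). C-Myc 1 read 13.11 and C-Myc 2 read 7.52, while the L-Myc arrays stayed at 5.67 and 6.29. The other 4 Pvt1 probe sets differed by 6.35 to 8.85. Rb1, one of the genes with conditional alleles, fell by 1.50 (SE 0.26, adjusted p = 0.008037), and Rbl2, for p130, fell by 0.86 (SE 0.23, adjusted p = 0.02819). Rbl1, for p107, fell by 1.05 (SE 0.25, adjusted p = 0.02221). The second-brightest probe sets of Rbl1 and Rbl2 went the other way, by 0.51 and 0.24. The Rb1 readings of 12.17, 12.34 and 11.83 in preSC do not show loss of the transcript. Where these probe sets lie relative to the deleted parts was not determined, so the readings do not check the deletions.

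Of 10 members of the MAX and MXD network, 3 fell (30%, against 16.4% of all tested genes), none rose, and the list's median was -0.26. The 3 were Mlxipl, the glucose-responsive factor ChREBP, which fell by 2.66, and the MYC antagonists Mxd4 and Mxd1, which fell by 1.47 and 1.07. Mlxipl read 7.75, 7.70 and 8.96 in preSC, 5.48 and 5.47 in N-Myc and 5.30 in C-Myc 1, and 7.15 to 8.21 in L-Myc 1, L-Myc 2 and C-Myc 2. The second probe set of Mxd1 read 0.09 higher. None of the 3 calls held without N-Myc 1 and none without N-Myc 2.

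The largest rises after Pvt1 joined genes of several functions. Klhl41, a kelch protein of muscle sarcomeres, read 4.25, 4.19 and 3.97 in preSC and 9.86 and 9.97 in N-Myc arrays, a difference of 5.78 (SE 1.25, adjusted p = 0.01576). Bcat1, the cytosolic aminotransferase of branched-chain amino acids, read 5.20, 5.33 and 3.79 in preSC and 9.91 and 9.85 in N-Myc arrays, a difference of 5.11 (SE 0.54, adjusted p = 0.002474). These genes differed in which other arrays moved: Bcat1 lay between 8.92 and 10.34 in all 4 L-Myc and C-Myc arrays, whereas Klhl41 was at 10.33 in C-Myc 1 and between 5.02 and 5.13 in the other 3. Fosb and Fos, which encode subunits of the AP-1 transcription factor, rose by 4.76 (SE 0.17, adjusted p = 8.646e-05) and 4.20 (SE 0.19). Fosb read 4.23, 4.16 and 4.16 in preSC, 9.09 and 8.80 in N-Myc arrays and 7.70 to 8.21 in the other transduced arrays. Psme3, the PA28γ activator of the nuclear proteasome, read 6.70, 6.59 and 7.17 in preSC and 10.53 in both N-Myc arrays. Its difference was 3.71 (SE 0.27, adjusted p = 0.001367).

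Further rises included Serpinb12, a serine protease inhibitor (5.29), Wdr66 (5.03) and Pdzrn3, a ubiquitin ligase (4.13). Dbn1, the actin-binding drebrin (3.38), and Map2k6, a kinase upstream of p38 (3.27), also rose. The other 2 Wdr66 probe sets above the filter differed by only 0.12 and 0.99. Serpinb12 was close to the threshold (adjusted p = 0.04738), and preSC 3, at 8.54, stood above preSC 1 and 2, at 4.84 and 5.05. Tph1, the rate-limiting enzyme of peripheral serotonin synthesis, read 4.11, 4.44 and 4.41 in preSC and 7.50 and 7.85 in N-Myc arrays, a difference of 3.35 (SE 0.49). Cdh11, a cadherin of mesenchymal cells, rose by 3.27, with 3.52 to 3.59 in preSC, 3.39 in L-Myc 1 and 6.80 to 7.34 in the other 5 arrays. Smn1, which helps to assemble spliceosomal particles, rose by 3.24, and Pfkl, the liver form of phosphofructokinase, by 3.19. Dctd, which makes dUMP for thymidylate synthesis, rose by 3.05. Mir1949 and Fam169a complete the 20 largest rises. Of these 20 genes, 9 kept their call whichever of the 5 arrays was left out: Myc, Mycn, Bcat1, Fosb, Fos, Psme3, Smn1, Pfkl and Mir1949.

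The largest falls were of genes well above the filter in preSC. Ctsz, a lysosomal cathepsin, read 11.81, 11.84 and 12.27 in preSC and 4.20 and 3.97 in N-Myc arrays, so it fell by 7.88 (SE 1.95, adjusted p = 0.02358). It read 3.69 in C-Myc 1 and 11.90 to 12.34 in C-Myc 2 and the L-Myc arrays. Wfdc2, a secreted whey acidic protein of airway epithelium, fell by 6.96, and Phtf2 by 6.66. Wfdc2 was at 4.67 and 4.70 in the N-Myc arrays and Phtf2 at 3.06 and 3.13. They were at 4.48 and 3.62 in C-Myc 1, and at 8.59 to 11.13 and 9.91 to 10.39 in the other 3 transduced arrays. Pcdh8, a protocadherin, instead was low in every transduced array: it read 10.16, 10.28 and 9.29 in preSC, 4.84 and 4.73 in N-Myc arrays and 5.14 to 7.27 in the others. It fell by 5.12 (SE 0.53, adjusted p = 0.002474).

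The other large falls were of genes of several functions. Chl1, a neural adhesion protein, fell by 5.61, Lrrn1, a leucine-rich neuronal membrane protein, by 5.44, and Alcam, the adhesion protein CD166, by 4.94. Alcam fell with all its probe sets, by 2.17 to 5.48 for the other 4. Cav2, of caveolae, and Emp1, a membrane protein, fell by 4.38 and 4.14, but their second probe sets read 0.12 higher and 0.10 lower. Psmb8, a catalytic subunit of the immunoproteasome, fell by 4.14. Plscr4, a phospholipid scramblase, Slc6a20a, a proline transporter, Ermp1, Prune2, Lipo3 and Neat1, the RNA of nuclear paraspeckles, lie on chromosomes 9 and 19, and fell by 5.47, 4.26, 5.06, 4.84, 4.30 and 4.65. The second Neat1 probe set read 0.19 higher. Egfl6, Necab1, Rnf152 and Nell1 fell by 4.70, 4.63, 4.60 and 4.19. Pcdh8 and Rnf152 kept their calls whichever array was left out, and the other 18 lost theirs without at least 1 array.

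**Figure D2:**
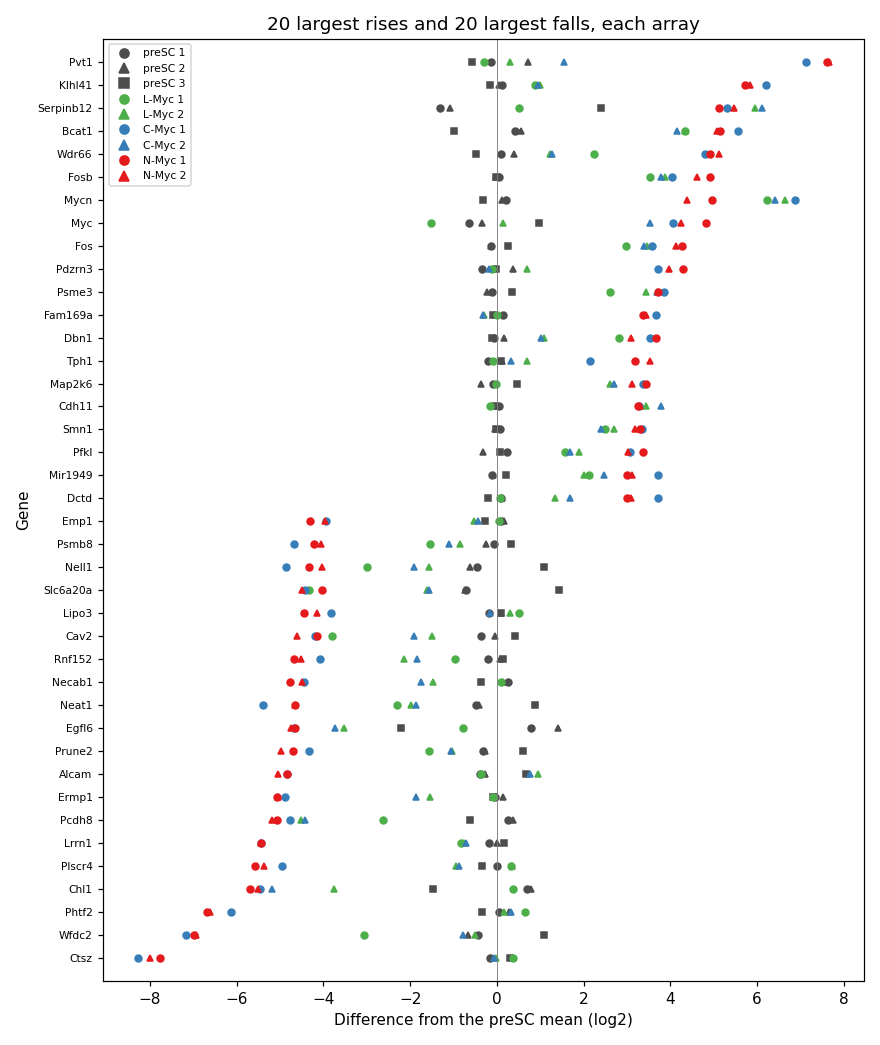
Difference of each array from the preSC mean on a log2 scale (horizontal axis) for the 20 largest rises and 20 largest falls past the threshold (vertical axis); each point is 1 array. C-Myc 1 lies beside the N-Myc arrays for most genes, and the other transduced arrays lie beside them for Bcat1, Fosb and Psme3 but not for Pvt1, Ctsz or Phtf2.

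Falls were uneven over the genome. On chromosome 9, 317 of 732 tested genes fell (43.3%) and 18 rose, with a median difference of -0.65. On chromosome 19, 145 of 450 fell (32.2%) and 9 rose, with a median of -0.46. On the other 18 chromosomes the medians ran from -0.07 to 0.11 and the share of genes that fell from 9.9% to 18.3%. Together chromosomes 9 and 19 held 462 of the 2124 falls (21.8%). Leaving them aside, 1584 genes rose and 1650 fell of 11725. Against the preSC mean, the chromosome 9 median was -0.64 and -0.65 in the N-Myc arrays and -0.58 in C-Myc 1, and -0.07 to -0.14 in L-Myc 1, L-Myc 2 and C-Myc 2. The chromosome 19 median was -0.46, -0.48 and -0.51 in the same 3 arrays and -0.02 to 0.03 in the other 3. When each chromosome was cut into 8 equal groups of neighbouring genes, all 8 medians of chromosome 9 lay between -0.38 and -0.88 and all 8 of chromosome 19 between -0.21 and -0.84. These chromosomes were singled out after all 20 had been looked at, so the values are a description. Genes on either chromosome are marked as such below.

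**Figure D3:**
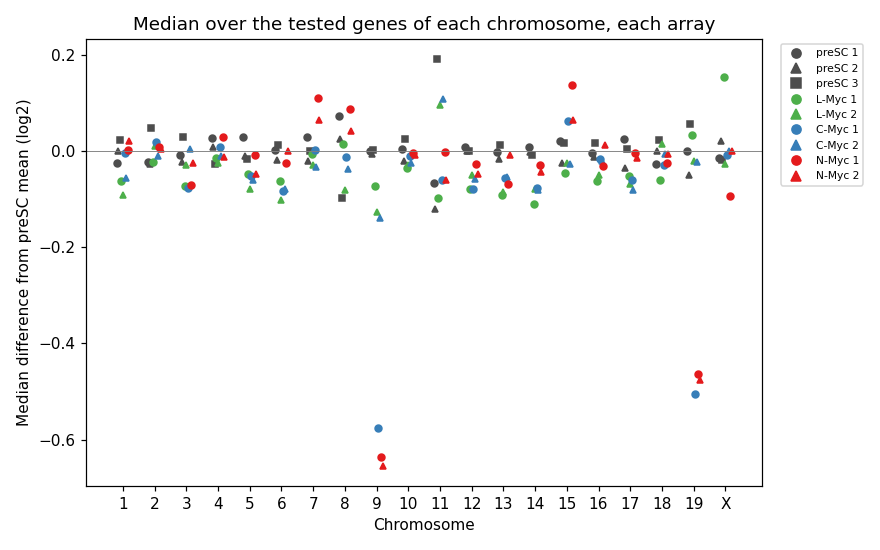
Median difference from the preSC mean on a log2 scale (vertical axis) over the tested genes of each chromosome (horizontal axis); each point is 1 array. Chromosomes 9 and 19 lie low in N-Myc 1, N-Myc 2 and C-Myc 1, at -0.46 to -0.65.

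In the 5 lists of ribosome synthesis and RNA polymerases, on the brightest probe sets of the fit over 9 arrays, every call was a rise. The shares that rose were 64.3%, 77.8%, 60.4%, 64.6% and 39.4% in the order below, against 12.5% of all tested genes. Of 14 tested proteins of the particles that modify ribosomal RNA (snoRNPs), 9 rose and none fell, with a median of 1.01 against -0.03 over all tested genes. Of 9 nucleolar phosphoproteins, 7 rose and none fell (median 1.30). Of 48 factors that assemble the 40S subunit, 29 rose and none fell (median 0.72), and of 48 that assemble the 60S subunit, 31 rose and none fell (median 0.81). Of 33 subunits and factors of RNA polymerases I and III, 13 rose and none fell (median 0.41). Some genes, such as Wdr12, stand in more than 1 list. These counts fell with the number of N-Myc arrays: without N-Myc 1 they were 4, 2, 2, 5 and 1, and without N-Myc 2 they were 4, 2, 1, 4 and 2. Without preSC 1 they were 9, 5, 13, 19 and 8, and without preSC 2 they were 8, 4, 12, 15 and 7. The medians moved less, for instance 0.69 and 0.75 for 40S assembly without N-Myc 1 and without N-Myc 2.

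Nhp2, a core protein of box H/ACA snoRNPs, read 10.39, 10.05 and 10.31 in preSC and 12.44 and 12.39 in N-Myc arrays, a rise of 2.17 (SE 0.27, adjusted p = 0.003529). Dkc1, the pseudouridine synthase dyskerin of the same particles, rose by 1.98, and Fbl, fibrillarin, the methyltransferase of box C/D snoRNPs, by 1.33. Ruvbl2 and Ruvbl1, ATPases that help to assemble such particles, rose by 1.67 and 1.52. Among nucleolar proteins, Gnl3, nucleostemin, rose by 1.78, the helicase gene Ddx21 by 1.74, Ncl, nucleolin, by 1.30 and Npm1, nucleophosmin, by 1.28 (adjusted p = 0.04582). Npm1 in preSC 3 was 11.62, below 12.60 and 12.58 in preSC 1 and 2. In the large subunit list, Noc2l rose by 2.08, and Pes1, Wdr12 and Bop1, which form the PeBoW complex, by 1.97, 1.87 and 1.83. The second probe sets of Pes1 and Bop1 read 0.08 lower and 0.10 higher. The methyltransferase gene Ftsj3 rose by 1.86. In the small subunit list, Utp4 rose by 1.74 and Tsr1 by 1.53. Polr1a and Polr1b, the 2 largest subunits of RNA polymerase I, rose by 1.49 and 1.31. Polr3g and Polr3e, of RNA polymerase III, rose by 1.48 and 1.28, and the second probe set of Polr3e read 0.15 lower. Noc2l differed between the other arrays, at 9.82 in C-Myc 1 and 7.18 to 7.68 in C-Myc 2 and the L-Myc arrays. Nhp2, Dkc1, Ruvbl2, Fbl, Gnl3, Ddx21 and Utp4 kept their calls whichever array was left out.

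The E-box CACGTG was counted in promoter windows from 250 bases before to 50 after annotated gene starts, taken from RefSeq on GRCm38.p6. The motif reads the same on both strands. A gene was counted if any of its windows held the motif, so genes with more windows had more chances. By this count the motif was present in 11.5% of the 10442 tested genes with a window. Per window it was present in 7.15% of all 32851 windows in the table, which is not the same measure. Genes that rose held it in 12.7%, genes that fell in 10.6% and genes that did not pass in 11.4%, so rises as a whole were near the background. At 2-fold or more the shares were 15.5% of rises and 11.7% of falls. In the 5 lists of ribosome synthesis and RNA polymerases it was present for 25 of 121 genes (20.7%), and for 19 of the 71 that rose (26.8%). These shares were not tested, and a match is not evidence of binding. Windows of individual genes that rose had been read first, most of them without the motif, and the rule for those shown here, which favours genes with it, was set afterwards. Below, as examples, are the windows of 3 members of those lists that rose and hold the motif, and of a member that rose without it. Not every member of those lists was open to this choice. Some members that are not shown rose more, and whether they hold the motif is not given here. Lower case is the window in the direction of the gene and capitals mark the motif.
Pes1: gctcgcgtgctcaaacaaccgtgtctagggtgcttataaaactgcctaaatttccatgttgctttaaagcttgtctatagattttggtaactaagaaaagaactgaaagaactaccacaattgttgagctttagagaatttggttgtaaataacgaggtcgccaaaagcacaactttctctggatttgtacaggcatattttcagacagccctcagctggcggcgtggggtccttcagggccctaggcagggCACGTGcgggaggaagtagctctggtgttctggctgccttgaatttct
Nle1: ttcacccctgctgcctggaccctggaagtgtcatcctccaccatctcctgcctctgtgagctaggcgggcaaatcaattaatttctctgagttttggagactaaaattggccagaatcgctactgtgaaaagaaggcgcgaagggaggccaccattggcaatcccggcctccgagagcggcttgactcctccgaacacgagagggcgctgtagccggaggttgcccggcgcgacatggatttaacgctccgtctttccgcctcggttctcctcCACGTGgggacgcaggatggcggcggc
Utp4: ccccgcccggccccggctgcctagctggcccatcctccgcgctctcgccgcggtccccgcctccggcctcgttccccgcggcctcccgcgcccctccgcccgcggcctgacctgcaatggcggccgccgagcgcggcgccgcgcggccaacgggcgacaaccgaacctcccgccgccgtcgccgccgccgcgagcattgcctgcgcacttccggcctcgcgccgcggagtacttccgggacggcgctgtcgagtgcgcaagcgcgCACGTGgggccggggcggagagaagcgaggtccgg
Nhp2: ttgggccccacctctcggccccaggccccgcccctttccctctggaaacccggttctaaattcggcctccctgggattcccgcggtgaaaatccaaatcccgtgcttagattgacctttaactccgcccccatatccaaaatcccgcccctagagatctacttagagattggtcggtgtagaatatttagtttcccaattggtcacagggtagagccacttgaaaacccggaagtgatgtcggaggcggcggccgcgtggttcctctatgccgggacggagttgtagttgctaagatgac

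The Pes1 window lies at chr11:3963725-3964024 on the plus strand, that of Nle1 at chr11:82908346-82908645 on the minus strand, and that of Utp4 at chr8:106893390-106893689 on the plus strand. The motif begins 2, 23 and 15 bases past the annotated start. The Nhp2 window, at chr11:51619523-51619822 on the plus strand, holds no CACGTG, and Nhp2 rose more than the other three. Nle1, a factor of 60S assembly, rose by 1.75.

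Genes of translation also rose more often than they fell. Of 41 translation factors 26 rose and 2 fell (median 0.67), of 36 aminoacyl-tRNA synthetases and their partners 15 rose and 1 fell (median 0.51), and of 20 chaperonins and related chaperones 14 rose and none fell (median 0.78). Of 72 mitochondrial ribosomal proteins 25 rose and none fell (median 0.46), after Mrpl56, which fell, had been removed from the list as told below. The shares that rose were 63.4%, 41.7%, 70% and 34.7% in this order, against 12.5% of all tested genes. Without N-Myc 1 the rises in these 4 lists were 2, 1, 1 and 2, and without N-Myc 2 they were 3, 2, 0 and 1. Without preSC 1 they were 15, 7, 13 and 11, and without preSC 2 they were 13, 6, 11 and 9. Eif4e, which binds the mRNA cap, read 11.09, 10.98 and 11.19 in preSC and 12.23 and 12.27 in N-Myc arrays, a rise of 1.16 (SE 0.15, adjusted p = 0.003906). Eif1a, an initiation factor, rose by 1.60, Eef1e1, a partner of the synthetase complex, by 1.31, Eif3b by 1.29 and Eif5b by 1.27. The scaffold gene Aimp2 rose by 1.44, and the valyl, phenylalanyl and lysyl synthetase genes Vars, Farsa and Kars by 1.26, 1.24 and 1.22. The second probe set of Farsa read 0.07 lower. The mitochondrial leucyl synthetase gene Lars2, on chromosome 9, fell by 1.19, but its second probe set read 0.84 higher. Hspe1 and Hspd1, the mitochondrial chaperonin pair, rose by 1.40 and 1.14, Trap1 by 1.25 and Cct8, of the cytosolic chaperonin, by 1.17. Mrpl50 and Mrpl19 rose by 1.75 and 1.58. Their list held falls at other settings: by the second-brightest probe set 11 of 38 rose and 3 fell (median 0.20). By the mean of probe sets 21 rose and 2 fell, with array weights 45 and 3, and with the compared arrays alone 33 and 3. Eef1e1, Eif4e, Aimp2 and Mrpl19 kept their calls whichever array was left out.

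**Figure D4:**
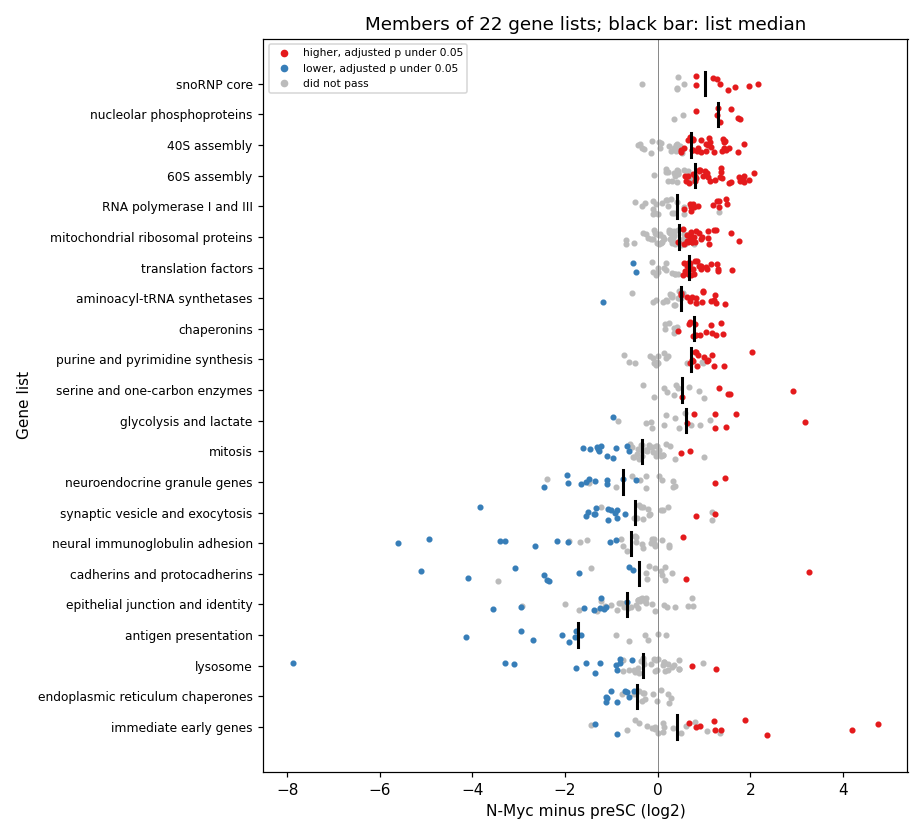
N-Myc minus preSC on a log2 scale (horizontal axis) for each tested member of 22 gene lists (vertical axis); red members rose, blue members fell, grey members did not pass, and black bars are list medians. The lists of ribosome synthesis lie to the right, with medians of 0.41 to 1.30, and antigen presentation lies to the left, with a median of -1.71.

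Of 35 proteasome genes 8 rose and 1 fell (median 0.39); 8 became 3 without either N-Myc array, 4 without preSC 1 and 3 without preSC 2. Psmb7, a catalytic subunit of the constitutive proteasome, read 10.63, 9.93 and 9.99 in preSC and 12.99 and 13.03 in N-Myc arrays, a rise of 2.83 (SE 0.22, adjusted p = 0.001391). It was between 12.86 and 13.03 in the L-Myc and C-Myc arrays as well. Psmd7, of the regulatory particle, rose by 1.36. Centred arrays gave 19 proteasome rises, 41 of mitochondrial ribosomal proteins and 21 of nuclear transport. At the main setting 11 of 49 nuclear transport genes rose and 3 fell (median 0.29): Ipo4, an import receptor, rose by 1.43, and the nucleoporin gene Pom121 fell by 1.19. Without N-Myc 1 or N-Myc 2 the rises of this list were 2 and 1, and without preSC 2 they were 5. Of 58 splicing genes 16 rose and 4 fell (median 0.25). The shares that rose were 22.9% for proteasome, 22.4% for nuclear transport and 27.6% for splicing genes, against 12.5% of all tested genes. Lsm2, Sf3b3 and Ptbp1 rose by 2.28, 1.40 and 1.23, and Sf3b2, on chromosome 19, fell by 1.62. Splicing rises were 2 without N-Myc 1, 4 without N-Myc 2 and 8 without preSC 2.

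Among metabolic genes, 14 of 30 in purine and pyrimidine synthesis rose and none fell (median 0.72). Atic, which catalyses the last steps of purine synthesis, read 9.56, 9.71 and 9.94 in preSC and 11.84 and 11.71 in N-Myc arrays, a rise of 2.04 (SE 0.22, adjusted p = 0.002474). Uck2, uridine-cytidine kinase, Aprt, adenine phosphoribosyltransferase, and Gart, of purine synthesis, rose by 1.42, 1.22 and 1.17. Of 15 serine and one-carbon enzymes 5 rose and none fell (median 0.53). The shares that rose in these lists were 46.7% and 33.3%, against 12.5% of all tested genes. Shmt1, the cytosolic serine hydroxymethyltransferase, rose by 2.91, Phgdh, the first enzyme of serine synthesis, by 1.55, the mitochondrial Shmt2 by 1.52 and Ahcy, of the methionine cycle, by 1.32. Nucleotide synthesis rises were 1 without N-Myc 1 and 2 without N-Myc 2, and one-carbon rises were 2 in both cases. Atic, Shmt1 and Ahcy kept their calls whichever array was left out.

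In glycolysis and lactate handling 7 of 20 genes rose and 1 fell (median 0.62), and the rises were 2 without either N-Myc array and 3 without preSC 1 or preSC 2. Pkm, pyruvate kinase, lies on chromosome 9 but rose, from 10.84, 10.61 and 10.66 in preSC to 12.31 and 12.05 in N-Myc arrays (difference 1.48, SE 0.15, adjusted p = 0.002474). Slc16a1, a lactate transporter, rose by 1.69, and Ldha, lactate dehydrogenase A, and Pfkfb3, which makes the activator of phosphofructokinase, each by 1.24. The glucose transporter gene Slc2a1 fell by 0.96, so it moved against the list. The share of the list that rose was 35%, against 12.5% of all tested genes. Of 10 polyamine genes 2 rose and 3 fell, and no fall was called without N-Myc 1 or N-Myc 2: Odc1, ornithine decarboxylase and a known MYC target, rose by 1.21 and Dohh by 1.05, while Oaz2, an ornithine decarboxylase antizyme on chromosome 9, fell by 1.11. The second probe sets of Dohh and Oaz2 went the other way, by -0.23 and 0.15. Tfrc, the transferrin receptor, rose by 1.14 on its brightest probe set and by 2.92 and 4.38 on the others, and Hmox1, haem oxygenase, rose by 2.18. Of 70 respiratory chain genes 12 rose (17.1%) and 8 fell (11.4%), shares near the 12.5% and 16.4% of all tested genes. Their median was 0.13, and 4 of the 8 falls were on chromosomes 9 and 19. Without N-Myc 1 there were 3 rises and 1 fall and without N-Myc 2 there were 2 and 0. Quantile normalization gave 11 and 13 and centred arrays 24 and 3. Sdhc and Cox7c rose by 2.02 and 1.91, and Ndufv1 and Cox8a, both on chromosome 19, fell by 1.26 and 0.89. No amino acid transporter of 14 rose and 3 fell (21.4%, near the 16.4% of all tested genes), with a median of -0.34. Among the 3, Slc43a2 fell by 1.32 and Slc36a4, on chromosome 9, by 1.21. The list's median was -0.31 without N-Myc 1 and -0.36 without N-Myc 2. Its direction depended on the probe set. By the second-brightest probe set 4 of 8 rose and 1 fell (median 0.44). By the mean of probe sets 0 of 13 rose and 2 fell (median 0.19).

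The cell cycle lists were mixed. Of 13 cyclins, cyclin-dependent kinases and inhibitors of G1, 2 rose and 4 fell, and all 4 falls were of inhibitors. The shares were 15.4% and 30.8%, against 12.5% and 16.4% of all tested genes. Cdkn1a, for p21, read 12.14, 12.05 and 11.001 in preSC and 9.63 and 9.38 in N-Myc arrays, so it fell by 2.22 (SE 0.49, adjusted p = 0.01647). Cdkn2d, for p19Ink4d, on chromosome 9, Cdkn2b, for p15, and Cdkn2c, for p18, fell by 1.30, 1.29 and 1.03. Ccnd3, cyclin D3, rose by 1.10, with its other 2 probe sets at -0.12 and 0.01. None of the 4 falls was called without N-Myc 1 or without N-Myc 2, and 1 was called without preSC 1 and 1 without preSC 2. Of 10 E2F family genes 2 rose (20%) and 4 fell (40%), with a median of -0.16. By the mean of probe sets 4 of the 10 rose and 3 fell (median 0.21). Among the 2 rises, E2f4 was higher by 1.06. Tfdp2, on chromosome 9, E2f2, E2f7 and E2f8 fell by 1.74, 1.61, 1.06 and 0.94. E2f8 was called in the opposite direction by its second probe set, 2.85 higher, and by the mean of its probe sets, 0.96 higher.

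Of 43 mitosis genes 2 rose (4.65%) and 11 fell (25.6%, against 16.4% of all tested genes), with a median of -0.33. Of the 11, 7 lie on chromosomes 9 and 19, and the list's median without these chromosomes was -0.20. Incenp, of the chromosomal passenger complex, on chromosome 19, fell by 1.61, and Ccnb2, cyclin B2, Kif23 and Spc24, on chromosome 9, by 1.47, 1.30 and 1.26. Pttg1, securin, on chromosome 11, fell by 1.32. The second probe set of Kif23 read 0.15 higher. The 11 falls were 3 without N-Myc 1, 0 without N-Myc 2, 5 without preSC 1 or preSC 2 and 6 with centred arrays. Of 51 DNA replication genes 8 rose (15.7%) and 6 fell (11.8%), shares near the 12.5% and 16.4% of all tested genes. Their median was 0.04, and with centred arrays 13 of them rose and none fell. None was called without N-Myc 1 or without N-Myc 2. Tipin, on chromosome 9, fell by 1.03, Pold1 by 0.83 and Rfc4 rose by 0.77, with the second probe set of Pold1 at 0.51.

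Of 13 neuroendocrine markers 3 rose and 7 fell, where 12.5% of all tested genes rose and 16.4% fell. All 13 neuroendocrine markers with a probe set were above the filter in all preSC and both N-Myc arrays, and their summed level was 137.2 to 137.8 in preSC and 131.1 to 132.2 in N-Myc arrays. In bulk RNA, fewer cells of a type and less RNA per cell cannot be told apart. Nkx2-1, a transcription factor of lung epithelium, read 5.73, 6.06 and 5.70 in preSC and 8.65 and 8.30 in N-Myc arrays, a rise of 2.65 (SE 0.21, adjusted p = 0.001391). All 4 L-Myc and C-Myc arrays were also high, at 8.12 to 8.61. Syp, synaptophysin of synaptic vesicles, rose by 1.23 (SE 0.18, adjusted p = 0.005113), from 7.39 to 7.91 in preSC to 8.87 and 9.04. Chga, chromogranin A of secretory granules, read 10.87, 10.86 and 11.33 in preSC and 9.71 and 9.61 in N-Myc arrays, so it fell by 1.36 (SE 0.21, adjusted p = 0.006049). The third rise was of Uchl1, a ubiquitin hydrolase of neurons and neuroendocrine cells, by 1.45 (SE 0.18, adjusted p = 0.003444). The other 6 falls were of Dll3, Ncam1, Scg2 and Foxa2, given below, of Scg3, secretogranin III, on chromosome 9, by 1.48, and of Chgb, chromogranin B, by 1.09. Nkx2-1 and Uchl1 kept their calls whichever array was left out, and Scg3 and Chgb did not.

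A list of 25 neuroendocrine granule genes held granins, hormones and their processing, and also other neuroendocrine genes such as Dll3 and Ncam1. Of the 25, 2 rose and 11 fell (median -0.74). The share that fell was 44%, against 16.4% of all tested genes. Dll3, Ncam1 and Scg2 also stand among the markers above, so the counts overlap. Dll3, an inhibitory Notch ligand of neuroendocrine cells, fell by 2.47, Pam, which amidates peptide hormones, by 1.95, the adhesion gene Ncam1, on chromosome 9, by 1.94, Scg2, secretogranin II, by 1.66 and Ptprn2, of granule membranes, by 1.55. Dll3 was at 7.42 in C-Myc 1 and 9.17 to 9.59 in C-Myc 2 and the L-Myc arrays. The 11 falls were 0 without N-Myc 1, 1 without N-Myc 2 and 7 without preSC 1 or preSC 2. Of 23 neuroendocrine and lung transcription factors 1 rose and 4 fell (17.4%, against 16.4% of all tested genes), and the falls were 1 without N-Myc 1 and 0 without N-Myc 2. Foxa2, Foxa1, Id4 and Prox1 fell by 1.52, 0.81, 0.80 and 0.61. Prox1 was at the threshold (adjusted p = 0.04982), and its second probe set rose by 1.47, with the mean of its probe sets at 0.16.

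**Figure D5:**
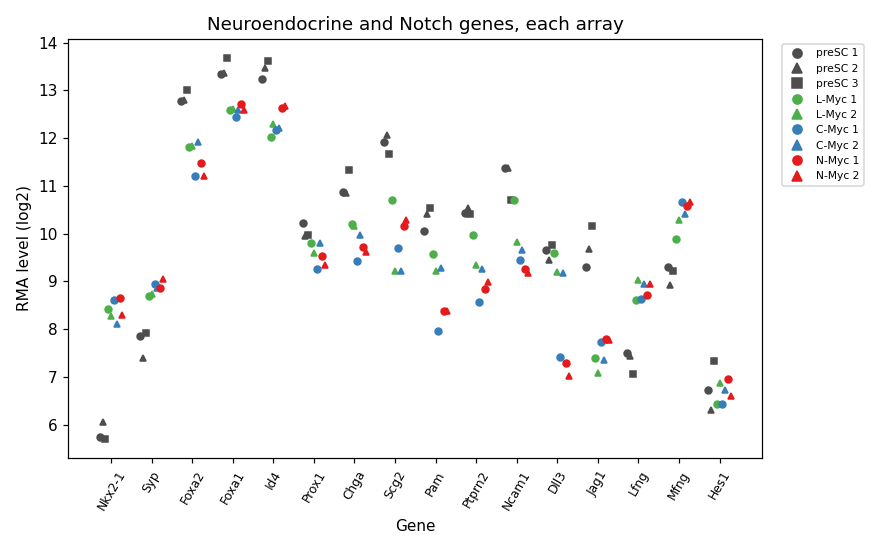
RMA level on a log2 scale (vertical axis) of 16 neuroendocrine and Notch genes (horizontal axis); each point is 1 array. Nkx2-1 is higher in every transduced array than in preSC, and Dll3 is lower in N-Myc 1, N-Myc 2 and C-Myc 1.

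In the Notch pathway 2 of 23 genes rose (8.7%) and 5 fell (21.7%), shares near the 12.5% and 16.4% of all tested genes, and 2 falls were called without either N-Myc array. The Fringe genes Lfng and Mfng, whose glycosyltransferases tune Notch receptors, rose by 1.51 and 1.48, and Jag1, a Notch ligand, fell by 1.93 (SE 0.26, adjusted p = 0.004332). Hes1, a main Notch target, differed by -0.01 (SE 0.31, adjusted p = 0.9864), with preSC arrays at 6.29 to 7.34 and N-Myc arrays at 6.95 and 6.59. Lfng, Mfng and Jag1 kept their calls whichever array was left out.

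Of 30 synaptic vesicle and exocytosis genes 2 rose and 13 fell (median -0.48), and the falls were 2 without N-Myc 1, 1 without N-Myc 2 and 6 without preSC 1 or preSC 2. Doc2b, a calcium sensor of exocytosis, fell by 3.84, Unc13b, a vesicle priming factor, by 1.56 and Syt1, synaptotagmin 1, by 1.50. Of 34 ion channel genes 3 rose and 8 fell (median -0.23). The shares that fell were 43.3% of the vesicle genes and 23.5% of the channel genes, against 16.4% of all tested genes. Kcnd2, a potassium channel, read 9.26, 9.43 and 9.87 in preSC and 5.40 and 5.86 in N-Myc arrays, so it fell by 3.89 (SE 0.66, adjusted p = 0.007783), and Cacna1h, a T-type calcium channel, fell by 1.77. The 8 ion channel falls were 2 without N-Myc 1, 1 without N-Myc 2 and 4 without preSC 2.

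Over all tested genes 12.5% rose and 16.4% fell, and the 3 adhesion lists are given beside these shares. In neural immunoglobulin adhesion 1 of 30 genes rose and 9 fell (median -0.57), among cadherins and protocadherins 2 of 22 rose and 9 fell (median -0.40), and of 41 genes of epithelial junctions and identity none rose and 9 fell (median -0.66). The shares that fell were 30%, 40.9% and 22%, the last near that of all genes. Without N-Myc 1 the falls were 2, 4 and 2, and without N-Myc 2 they were 2, 5 and 2. Without preSC 1 they were 7, 5 and 5, and without preSC 2 they were 6, 5 and 4. Pcdh10, a protocadherin, read 8.93, 9.07 and 9.41 in preSC and 4.79 and 5.29 in N-Myc arrays, so it fell by 4.10 (SE 0.56, adjusted p = 0.004332). C-Myc 1 read 6.43 there. Cdh8 and Cdh4 fell by 3.09 and 2.45. The contactin gene Cntn3 fell by 3.41, and Cntn4 fell by 3.31. Dscaml1, on chromosome 9, fell by 2.66, although its second probe set read 0.31 higher.

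Cdh1, E-cadherin of epithelial junctions, read 12.62, 12.72 and 13.12 in preSC and 11.06 and 11.39 in N-Myc arrays, so it fell by 1.60 (SE 0.50, adjusted p = 0.04947). It was lowest in L-Myc 1, at 9.38. Eppk1, epiplakin, fell by 3.55 (SE 0.49, adjusted p = 0.004365) and was low in all transduced arrays, at 4.77 to 6.24, against 8.67 to 9.57 in preSC. Prom1, a stem cell surface protein, fell by 2.96. The tight junction gene Tjp3 fell by 1.38, and Pkp3, of desmosomes, fell by 1.25. In axon guidance 4 of 48 genes rose (8.33%) and 9 fell (18.8%), with a median of 0.05, and the falls were 3 without N-Myc 1 and 4 without N-Myc 2. Neo1, a netrin receptor on chromosome 9, Sema3e, a semaphorin, and Robo1, a Slit receptor, fell by 2.42, 2.08 and 1.98. Robo1 read 12.40, 12.37 and 12.41 in preSC, 10.35 and 10.47 in N-Myc and 11.10 in C-Myc 1. Among integrins, Itgb1 rose by 1.43 and Itgav fell by 2.43, with the second Itgav probe set at 0.30.

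Of 14 tested genes of antigen presentation (MHC class I and peptide loading), 8 fell, none rose and 6 did not pass (median -1.71). The share that fell was 57.1%, against 16.4% of all tested genes. Psmb9, an immunoproteasome subunit, read 8.70, 8.77 and 9.40 in preSC and 5.92 and 6.08 in N-Myc arrays, so it fell by 2.96 (SE 0.54, adjusted p = 0.009226). H2-M3, a class I heavy chain, fell by 2.70, Tap1, a peptide transporter, by 2.06 and Tapbp, tapasin, by 1.91, but the second probe sets of Tap1 and Tapbp differed by 0.12 and 0.04. None of the 8 passed without N-Myc 1 or without N-Myc 2, and 6 passed without preSC 1 or preSC 2. With 1 or the other N-Myc array left out the list's median was -1.49 and -1.88. Of 25 interferon response genes 1 rose and 6 fell, and the falls were 0 without N-Myc 1, 1 without N-Myc 2 and 3 without preSC 1 or preSC 2. Ifit2, on chromosome 19, fell by 3.68. Ifih1, an RNA sensor, fell by 2.56, and Ifi27 fell by 2.22, while Ifngr2, a subunit of the interferon gamma receptor, rose by 1.88. Psmb9 was at 5.87 in C-Myc 1 and 7.29 to 8.03 in the L-Myc arrays and C-Myc 2.

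Of 43 lysosomal genes 2 rose and 12 fell (27.9%, against 16.4% of all tested genes), 3 of the 12 on chromosomes 9 and 19. The list's median was -0.31. Besides Ctsz, the cathepsin genes Ctsc and Ctso fell by 3.30 and 3.10, and Hexa and Glb1, both on chromosome 9, which break down glycolipids, by 1.76 and 1.56. The falls were 0 without N-Myc 1, 1 without N-Myc 2, 8 without preSC 1 and 6 without preSC 2. Of 22 endoplasmic reticulum chaperones and sensors none rose and 9 fell (40.9%, median -0.46). This depended on the probe set. By the second-brightest probe set 4 of 15 rose and 1 fell (median 0.10). By the mean of probe sets 2 of 22 rose and 4 fell (median -0.14). Ern1, the stress sensor IRE1, fell by 1.12, Dnajc3, an inhibitor of the kinase PERK, by 1.11 and Xbp1, the factor that IRE1 activates, by 1.10. The 9 falls were 1 without either N-Myc array, 4 without preSC 1, 3 without preSC 2 and 5 with centred arrays. Of 21 genes of the integrated stress response 5 rose (23.8%) and 2 fell (9.52%), against 12.5% and 16.4% of all tested genes. The list's median was -0.14, and it was -0.11 without N-Myc 1 and -0.02 without N-Myc 2. Stc2 and Ppp1r15a, the latter a phosphatase subunit that ends the response, rose by 1.83 and 1.30.

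Of 30 immediate early genes 10 rose and 2 fell (median 0.42), and the rises were 3 without either N-Myc array. Besides Fos and Fosb, Egr1 read 10.18, 10.06 and 11.64 in preSC and 13.10 and 12.88 in N-Myc arrays, a rise of 2.36 (SE 0.46, adjusted p = 0.01112). Junb, another AP-1 subunit, rose by 1.89 and Klf4 by 1.37. The share of this list that rose was 33.3%, against 12.5% of all tested genes. Klf4 was at 6.98 and 6.93 in N-Myc arrays and 6.57 in C-Myc 1, and at 5.14 to 6.00 in the other 6 arrays. Fos, Fosb and Junb were higher than in preSC in all 6 transduced arrays.

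Receptor and signalling genes moved both ways. Over all tested genes 12.5% rose and 16.4% fell. These shares were 9.38% and 25% in the FGF and receptor list and 7.14% and 28.6% in the activin and BMP list. In the retinoic acid list both were 20%. Of 32 FGF and receptor tyrosine kinase genes 3 rose and 8 fell, and the falls were 2 without N-Myc 1 and 1 without N-Myc 2, with no rise in either case. Met, the hepatocyte growth factor receptor, fell by 2.89, and Ntrk2, a neurotrophin receptor, rose by 1.60. Of 28 activin and BMP genes 2 rose and 8 fell: Bmp2, a ligand, read 10.97, 11.21 and 10.38 in preSC and 8.09 and 7.99 in N-Myc arrays, so it fell by 2.82 (SE 0.44, adjusted p = 0.006303), and Fstl1 rose by 2.25. Without either N-Myc array this list had 0 rises and 1 fall, and without preSC 1 or preSC 2 it had 1 and 4. Of 15 retinoic acid genes 3 rose and 3 fell. The 3 falls were of Aldh1a1, on chromosome 19, and Aldh1a3, both enzymes that make retinoic acid, which fell by 3.40 and 2.76, and of Crabp1, a binding protein on chromosome 9, which fell by 2.98. No retinoic acid gene was called without N-Myc 1 or without N-Myc 2. Igfbp5, an IGF-binding protein, fell by 1.50 and Fzd5, a Wnt receptor, by 1.34.

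In the BCL2 family 3 of 20 genes rose (15%) and 2 fell (10%), and without either N-Myc array 2 rises and no fall were called. Bid, which promotes apoptosis, read 6.15, 6.23 and 5.91 in preSC and 8.09 and 8.12 in N-Myc arrays, a rise of 2.01 (SE 0.15, adjusted p = 0.001367). Mcl1, which opposes apoptosis, rose by 1.59, although its second probe set read 0.32 lower. Birc2, on chromosome 9, fell by 1.39 and Bcl2l11, for the pro-apoptotic BIM, by 0.99. Over all tested genes 12.5% rose and 16.4% fell. Of 53 chromatin genes 7 rose (13.2%) and 13 fell (24.5%). Without N-Myc 1 no rise and 4 falls were called, without N-Myc 2 there were 2 and 2, and without preSC 1 and preSC 2 there were 5 and 5 and 4 and 4. Prmt5, an arginine methyltransferase, and Ehmt2, a histone H3 methyltransferase, rose by 1.79 and 1.33, and the acetyltransferase gene Crebbp fell by 1.32. Sall4, a factor of fetal tissue, rose by 2.30. Among long noncoding RNAs Snhg3 and Gas5, hosts of small nucleolar RNAs, rose by 1.32 and 1.09, and Malat1, on chromosome 19, fell by 1.39. Bid, Mcl1 and Crebbp kept their calls whichever array was left out.

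Markers of other cell types were mostly near or below the filter, with exceptions. In preSC, Vwf read 10.57 to 10.67 and Abca3 9.51 to 9.97. Coro1a, Dcn and Lyz2 are named after their values were seen. Coro1a read 9.16 to 9.91 in preSC and 10.09 and 10.07 in N-Myc arrays. Dcn read 6.59, 6.86 and 9.32 in preSC and 5.70 and 5.46 in N-Myc arrays. Lyz2 read 9.31, 10.09 and 5.61 in preSC, 9.78 and 10.01 in N-Myc arrays and 12.31 in C-Myc 1. Of 19 club, alveolar and ciliated cell markers with a probe set 10 were above the filter in all preSC and 10 in both N-Myc arrays, with summed levels of 106.8 to 108.5 and 109.2 to 109.7. Of the 10 tested, 2 fell (20%, near the 16.4% of all tested genes) and none rose. Abca3, of lamellar bodies, fell by 2.03. Sftpc, surfactant protein C, named after its values were seen, read 8.42, 8.27 and 6.06 in preSC, 10.59 and 11.10 in N-Myc and 10.68 in C-Myc 1, and did not pass (adjusted p = 0.09635). Of 14 fibroblast markers 4 were above the filter in all preSC and 6 in both N-Myc arrays (summed levels 71.5 to 73.3 and 70.6 to 71.8). Of 12 endothelial markers 5 and 6 were (66.8 to 68.5 and 65.7 to 66.5), and of 18 leukocyte markers 6 and 6 (94.0 to 99.0 and 100.2 to 101.1). In these 3 lists Mfap4 rose by 0.73, Vwf fell by 2.04 and Cd3e, on chromosome 9, rose by 0.48. Their part in the results was not tested.

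N-Myc arrays were also set against the other transduced arrays. Between N-Myc and C-Myc arrays no gene passed in limma (0% of 12976), with 541 genes at an unadjusted p under 0.05, and between N-Myc and L-Myc arrays none passed (0%), with 2432. The smallest adjusted p-values were 0.9363 and 0.1653. The 2 C-Myc arrays were farther from each other than C-Myc 1 was from N-Myc, so the count of 0 does not show that N-Myc and C-Myc cells are alike. Without C-Myc 1, 419 genes passed between N-Myc and C-Myc 2. Between N-Myc and L-Myc, 11 genes passed without L-Myc 2, 241 when only those 4 arrays were fitted, and 1131 without C-Myc 1 or without C-Myc 2. The brightest Mycn probe set differed by -1.96 between N-Myc and C-Myc arrays (SE 0.29) and by -1.77 between N-Myc and L-Myc arrays (SE 0.29). All comparisons against preSC share the same 3 preSC arrays, so only values are set side by side: the differences from preSC in N-Myc, C-Myc and L-Myc arrays were 4.76, 3.91 and 3.70 for Fosb and 7.63, 4.34 and 0.00 for Pvt1.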

How the data were processed

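RNA was measured on 9 Affymetrix Mouse430_2 arrays. The deposited values are log2 expression values per probe set, which the authors computed by RMA (affy, R 3.0.1), per the submitters' processing notes. RMA forces the arrays to 1 common distribution, so a shift of all transcripts together would not show. Array medians were 6.02 to 6.07.

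Symbols came from the platform table and were updated through RefSeq: 34741 of the 34945 probe sets with 1 symbol matched. A gene was tested if its probe set lay above the 40th percentile of the array (5.28 to 5.34) on at least 2 of 9 arrays. Group means were fitted over all 9 arrays with limma 3.58.1 in R 4.3.3 (lmFit, eBayes; 5 residual degrees of freedom, 7.44 after moderation), two-sided, with Benjamini-Hochberg adjustment over 12976 genes. Every adjusted p is from this limma fit. SE is the moderated standard error. The fit was tested on simulated data. The number of arrays limits the precision, and the p-values measure only the spread between these arrays, which may be technical.

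The 59 gene lists and the rule for named genes were chosen with earlier results of these data known, so they are no independent support. Named were the MYC and Rb family genes, the 20 largest rises and falls past the threshold with arrays that do not overlap, up to 5 members per list with the largest differences past the threshold, the neuroendocrine markers past it, and a few fixed genes. Mrpl56 was removed from its list after its values were seen, because its symbol maps to Lactb, which is no ribosomal protein. It had been the only member of that list to fall at the main setting. The chromosome split, the E-box count and the choice of windows were made after seeing the data. Probe sets with several symbols or none were kept out of the gene counts. Some genes are not reported here.

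The alternatives were other filters, quantile normalization, centring, other probe sets, the compared arrays alone, variance settings, array weights, a replicate block and leaving out arrays.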

Additional observations from a re-analysis of the deposited data

Results flagged for a closer look

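Probe sets outside the gene counts also moved. Of 4263 bright probe sets that the annotation used here does not list, 390 were higher and 1018 lower in N-Myc than in preSC arrays at an adjusted p under 0.05. Of 633 bright probe sets with several gene symbols, 157 were higher and 80 lower. They are named here because no comparison of named genes uses them, and no gene can be given for them.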

How the results depend on the processing

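For N-Myc against preSC, 3741 genes passed. The count was between 2572 and 4883 with the compared arrays alone, other filters, quantile normalization, centred arrays, other probe sets, other variance settings or without chromosomes 9 and 19. With array weights it was 6930 (3161 higher, 3769 lower). Centred arrays gave 2662 higher, and the second-brightest probe set 1028 lower among 6384 genes. With the closest arrays averaged, which was chosen after seeing the data as were the fits without an L-Myc or C-Myc array or without chromosomes 9 and 19, 0 genes passed, 0 higher and 0 lower. Leaving out 1 array gave 544 to 4476 genes, 233 to 1985 higher and 300 to 2491 lower. Between N-Myc and C-Myc, leaving out 1 array gave 0 to 419, and the other fits 0. Between N-Myc and L-Myc the count was 241 with those 4 arrays alone, 670 with array weights, and 0 to 1131 with 1 array left out. The same replicate number is not said to link samples, and deviations correlated at 0.13 (preSC 1 and N-Myc 1) and -0.01 (preSC 2 and N-Myc 2). With the replicate block 2845 genes passed, 2569 of them among the 3741. Replicate number 3 exists only for preSC, so the block in effect takes preSC 3 out of the comparison. Leaving preSC 3 out gave 2858 genes, so the block is hardly a separate check.

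Read by the second-brightest probe set, these named genes changed sign: Mycn (-2.71), Rbl1 (0.51), Rbl2 (0.24), Mxd1 (0.094), Neat1 (0.19), Cav2 (0.12), Pes1 (-0.078), Polr3e (-0.15), Farsa (-0.069), Lars2 (0.84), Dohh (-0.23), Oaz2 (0.15), E2f8 (2.85), Kif23 (0.15), Pold1 (0.51), Prox1 (1.47), Dscaml1 (0.31), Itgav (0.30), Tap1 (0.12), Tapbp (0.040) and Mcl1 (-0.32). By the mean of probe sets E2f8 read 0.96 and Prox1 0.16. The cause was not tested. No other fit turned the sign of a named gene that passed.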
